A study of Arabidopsis thaliana with 7 samples.

Results

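CYP71B6, CYP71B26, CYP71B28, CYP71B29 and CYP71B34 are 5 genes of the CYP71B subfamily of cytochromes P450, measured here in Arabidopsis thaliana roots on 7 one-colour Affymetrix ATH1 arrays. They were taken by gene symbol from the probe annotation, where each had 1 probe set, and they are 5 of 13350 genes that the annotation pairs with a single-gene probe set. They were chosen by measured values, those of 2 comparisons in which CYP71B genes stood lower: the transgenic line with against without dexamethasone, and that response relative to the wild type's. Those 2 comparisons, and the comparison of line and wild type under dexamethasone, which rests on the same treated array, are therefore described below without a test of the 5 genes.

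The transgenic line, ANGR4-12, is in the C24 background and carries a fusion labelled ANR1::rGR, of the MADS-box factor ANR1 with a glucocorticoid receptor, driven by the 35S promoter, which is active in most plant cells and not only in those that normally express ANR1. It is called the ANR1-GR line here. The groups were the line with 1 µM dexamethasone (1 array, replicate 2), the line without dexamethasone (2 arrays), the wild type with 1 µM dexamethasone (2 arrays) and the wild type without it (2 arrays). All plants had been starved of nitrogen for 2 days and were moved after 9 days, for 1 h, to plates with or without the steroid, and each array held RNA pooled from 20 plants. For the wild type the labels give the ecotype only as a control, and a single transgenic line was used, so an effect of the background or of the insertion cannot be told apart from the transgene. ANR1 itself has no probe set in the annotation used and was not analysed here.

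Cytochromes P450 are haem enzymes that insert an oxygen atom into small molecules, with electrons passed on by a reductase in the membrane of the endoplasmic reticulum. The CYP71B subfamily is plant-specific, and many of its genes stand in tandem arrays that arose by duplication. Its best known member, PAD3 (CYP71B15), makes the defence compound camalexin from indole precursors, and CYP71B6 acts on indole-3-acetonitrile, an intermediate close to that route. Glucocorticoid receptor fusions stay in the cytoplasm until a steroid such as dexamethasone lets them enter the nucleus.

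The arrays carried the replicate number more strongly than genotype or treatment. In a model with the 4 groups, 1703 of 10183 tested probe sets (16.7%) differed between replicate 2 and replicate 1 by limma at a Benjamini-Hochberg adjusted p of 0.05, while 0 passed in each of the other 5 comparisons. Those 5 were fitted without the replicate number, so the spread behind their p-values includes the replicate difference. With that number as a term (the replicate block) 0 also passed for dexamethasone in the wild type and between the untreated groups, where every group had 2 arrays. Of the 1703, 769 were higher and 934 lower in replicate 2, a split that median centring turned to 1031 and 745. The count depended on which pairs of arrays entered. Leaving out 1 array takes its whole pair out of the replicate comparison, and the fit then has 1 residual degree of freedom. The count fell when the lost pair was that of the treated wild type or the untreated line. It rose when the lost pair was that of the untreated wild type. The actin 3'/5' signal ratio, a sign of RNA quality, was 0.388 in the treated line. The untreated line gave 0.259 and 1.59, the treated wild type 0.251 and 0.876, and the untreated wild type 0.528 and 0.346, with replicate 1 first. The replicate 2 arrays of the untreated line and of the treated wild type thus stood apart, and differences between groups that rest on them are also given without them, whereas the pooled SDs and correlations use all 7 arrays. Of the root markers listed for this check 2 of 13 had a probe set, and EXPA18, a root hair expansin, was measured at 177.4 to 313.1 in all arrays, while EXPA7 ranged from 27.0 in the untreated line of replicate 2 to 127.6. The 2 of 10 markers of green tissue with a probe set summed to 156.7 in the treated line, to 132.7 to 222.9 in untreated line arrays, 113.5 to 251.8 in the treated wild type and 130.2 to 248.1 in the untreated wild type, most of it from RCA (Rubisco activase). None of these 4 markers was at 0, and their part in the results was not tested.

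The annotation held 20 CYP71B probe sets, 19 with 1 gene and 1 shared by CYP71B19 and CYP71B20, out of 36 CYP71B loci that RefSeq names (33 protein-coding genes and 3 pseudogenes, assembly TAIR10.1). Signals are the deposited linear values, scaled to a common trimmed mean on each array. A probe set was tested when its mean over the 7 arrays was at least 50, and 7 CYP71B probe sets were: those of the 5 genes plus CYP71B23 and CYP71B37. The other 13 had means of 0.386 to 16.2, far outside the filter, and 11 of them stayed under 20 in every array. The dimmest of the tested was CYP71B28 at a mean of 64.5, and the brightest untested was CYP71B27 at 16.2, whose signal was 38.3 in replicate 2 of the untreated wild type and 9.7 to 16.5 elsewhere. Brightness depends on the probes, so a dim probe set does not show that its gene is silent, and levels are not set against each other between genes.

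**Figure D1:**
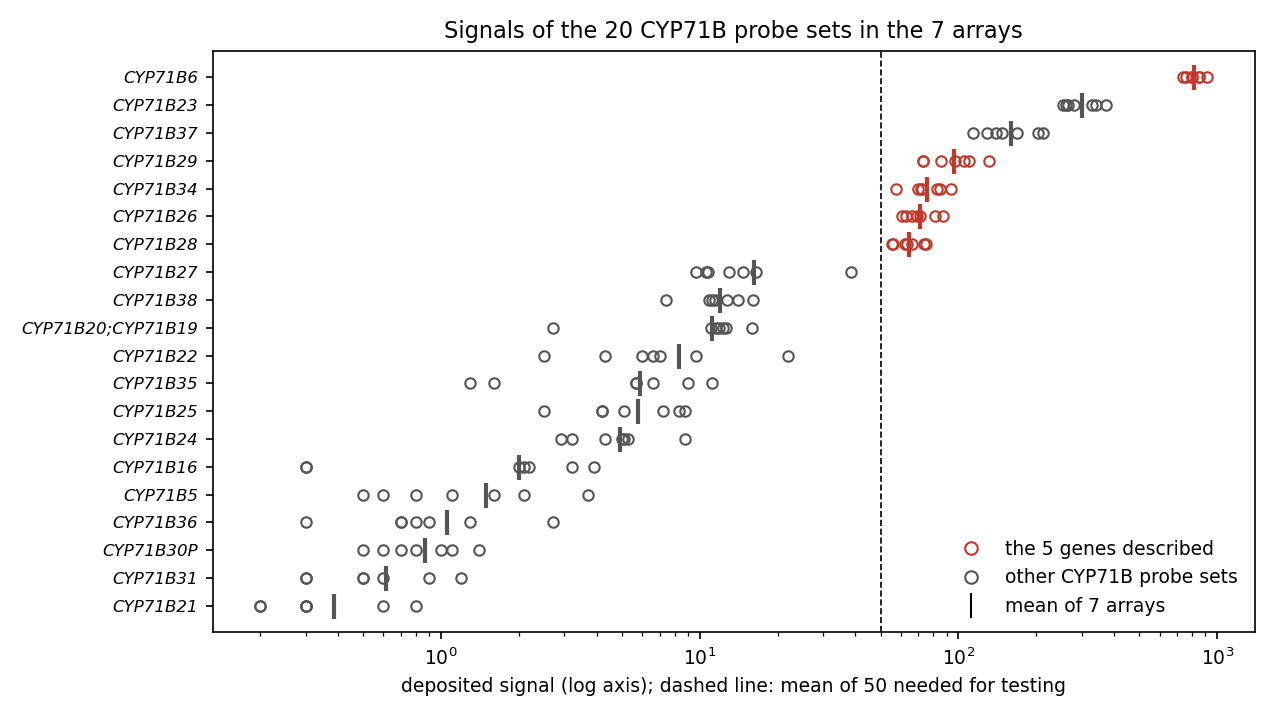
Signals of all 20 CYP71B probe sets on a logarithmic axis, 1 circle per array and a bar at the mean of the 7 arrays, with the 5 genes described here in red and the dashed line at the mean of 50 needed for testing. The 7 tested probe sets have means of 64.5 or more, and the other 13 have means of 16.2 or less.

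CYP71B6 (AT2G24180, probe set 266000_at) encodes the enzyme that acts on indole-3-acetonitrile, and its signal had the smallest coefficient of variation of the 5 genes. Its signal was 736.7 in the treated line; the untreated line gave 797.1 and 848.9, the treated wild type 800.9 and 915.5, and the untreated wild type 759.3 and 846.5 (replicate 1 first). The treated line was the lowest of the 7 arrays, and in each of the other groups replicate 2 was above replicate 1. The signal lay at the 96.4th to 97.1st percentile of its array, and that coefficient over all arrays was 7.43%. In RefSeq the end of this gene overlaps the neighbouring SDR2, and whether the probes read both transcripts is not known.

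CYP71B26 (AT3G26290, 257628_at) and CYP71B34 (AT3G26300, 256870_at) lie in the same tandem array, with the pseudogene CYP71B33 as the only annotated gene between them. CYP71B26 stood at 60.4 in the treated line, where the untreated line gave 87.1 and 81.4, the treated wild type 66.0 and 70.9 and the untreated wild type 69.3 and 62.7. The treated line was the lowest array and both untreated line arrays were above all others, so the untreated line overlapped with no other group. Among all tested probe sets 8.67% had their lowest value in the treated line, as did CYP71B26 and CYP71B6. Both untreated line arrays were above all others for 2.68%, as for CYP71B26, CYP71B28 and CYP71B34. The choice of genes favours a low treated line and a high untreated line. These percentages therefore cannot serve as a test of the chosen genes. CYP71B34 stood at 71.7 in the treated line, where the untreated line gave 93.3 and 85.1, the treated wild type 72.2 and 69.9 and the untreated wild type 82.3 and 57.1. Here the untreated line was again above the other arrays, closely followed by replicate 1 of the untreated wild type, and the treated line lay inside the wild type range.

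CYP71B28 (AT1G13090, 262780_at) and CYP71B29 (AT1G13100, 262827_at) are immediate neighbours in another tandem array, between CYP71B2 and CYP71B7. CYP71B28 stood at 55.7 in the treated line, where the untreated line gave 73.8 and 74.7, the treated wild type 63.3 and 66.3 and the untreated wild type 62.3 and 55.4. The untreated line was above all other arrays, and the treated line stood beside the lowest wild type array. CYP71B29 stood at 72.9 in the treated line, where the untreated line gave 85.3 and 96.6, the treated wild type 109.5 and 105.4 and the untreated wild type 72.8 and 130.8. Its untreated wild type arrays were the lowest and the highest of all 7, so they spanned every other group. The specific substrates of CYP71B26, CYP71B28, CYP71B29 and CYP71B34 are left unnamed here.

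**Figure D2:**
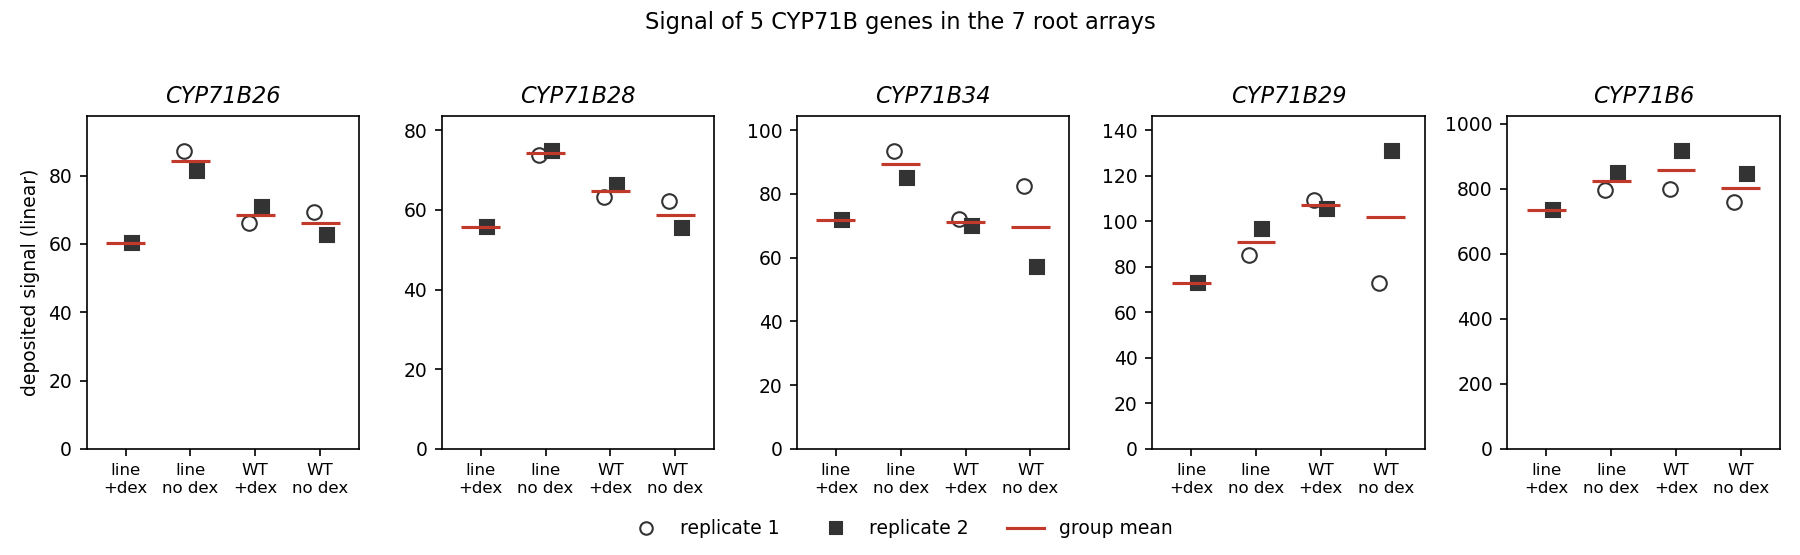
Deposited signal (linear, axis from 0) of the 5 genes in the 7 arrays, by line and dexamethasone (dex), with a circle for replicate 1, a square for replicate 2 and a red line at the group mean (a single array for the treated line). CYP71B26, CYP71B28 and CYP71B34 are highest in both untreated line arrays, whereas the untreated wild type of CYP71B29 spans from 72.8 to 130.8.

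The spread between replicates differed among the 5 genes. The pooled SD within groups on the log2(signal + 16) scale was 0.0589 for CYP71B28, 0.0674 for CYP71B26, 0.106 for CYP71B6, 0.181 for CYP71B34 and 0.303 for CYP71B29, against a median of 0.208 over all tested probe sets. CYP71B28 and CYP71B26 were thus among the most repeatable probe sets, with 3.6% and 5.22% of those tested having a smaller SD. CYP71B29 was less repeatable than 71.7% of them. These SDs rest on 3 pairs of arrays. The p-values below measure only the spread between pools, and limma moderates each gene's spread towards that of other tested probe sets. The SEs below are therefore not set by these SDs alone. Between the untreated groups the SE was 0.154 for CYP71B26 and 0.153 for CYP71B28, more than their own SDs give.

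Dexamethasone in the line asks what follows when the fusion protein is let into the nucleus. The treated line had less signal than the mean of the untreated line for each of the 5 genes, with a ratio of 0.717 for CYP71B26, 0.750 for CYP71B28, 0.802 for CYP71B29, 0.804 for CYP71B34 and 0.895 for CYP71B6. It was below both untreated line arrays in 5 of 5, which is part of what chose them, and 24.1% of all tested probe sets behaved in the same way. In whole roots, fewer cells of a type and less RNA per cell cannot be told apart.

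On the log2(signal + 16) scale, which understates changes of dim probe sets, the difference in the line was -0.39 ± 0.19 (SE) for CYP71B26 and -0.33 ± 0.19 for CYP71B28. It was -0.26 ± 0.24 for CYP71B34, -0.26 ± 0.32 for CYP71B29 and -0.16 ± 0.20 for CYP71B6. The SEs assume that the single treated array varies like the others. The median of the 5 was -0.265 and that of all tested probe sets 0.001, with 49.7% of them below 0. By limma 0 of 10183 probe sets (0%) passed for this contrast, with 54 at an unadjusted p under 0.05.

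Within replicate 2, the one with a treated line array, this difference was -0.35 for CYP71B26, -0.34 for CYP71B28, -0.34 for CYP71B29, -0.21 for CYP71B34 and -0.20 for CYP71B6. The untreated line array of replicate 2 had the high 3'/5' ratio. Without it, against the untreated line of replicate 1 alone, the difference was -0.43 for CYP71B26, -0.32 for CYP71B28, -0.32 for CYP71B34, -0.19 for CYP71B29 and -0.11 for CYP71B6, so the sign was the same against either untreated array. With the replicate number and the 3'/5' ratio both as terms, a fit with 1 residual degree of freedom, CYP71B34 stood at 0.027 and CYP71B29 at -0.76, while CYP71B26 (-0.34), CYP71B28 (-0.23) and CYP71B6 (-0.26) were below 0 as before.

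The line with dexamethasone was set against the wild type with dexamethasone. CYP71B29 had the widest gap, with 72.9 for the treated line, against a treated wild type mean of 107 ± 2.90 (SD, n = 2), and a log2 difference of -0.47 ± 0.32 (SE). CYP71B6 stood at -0.21 ± 0.20, CYP71B28 at -0.17 ± 0.19 and CYP71B26 at -0.14 ± 0.19. CYP71B34 stood at 0.011 ± 0.24, and at -0.011 with quantile normalization and -0.0019 with median centring. With the replicate block CYP71B34 stood at 0.11 and CYP71B29 at -0.61, and with the 3'/5' ratio added to the block at 0.25 and -0.87. Without the treated wild type array of high 3'/5' ratio CYP71B29 stood at -0.50, CYP71B6 at -0.12, CYP71B28 at -0.145, CYP71B26 at -0.10 and CYP71B34 at -0.0082. The treated line lay below both treated wild type arrays for 4 of the 5 genes (all but CYP71B34), against 22.6% of all tested probe sets, and 47.9% of all had a log2 difference below 0. The choice of genes favours a low treated line, so these percentages cannot serve as a test of them. By limma 0 of 10183 probe sets (0%) passed, with 41 at an unadjusted p under 0.05, and 1 passed without the untreated line array of replicate 2.

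Subtracting the wild type's response from that of the line uses all 7 arrays, and this value also served to choose the genes. Its log2 value was -0.44 ± 0.24 (SE) for CYP71B28, -0.43 ± 0.24 for CYP71B26, -0.38 ± 0.41 for CYP71B29, -0.30 ± 0.31 for CYP71B34 and -0.25 ± 0.26 for CYP71B6. The median was -0.377, against -0.002 for all tested probe sets, of which 50.3% were below 0, and by limma 0 of 10183 (0%) passed, with 76 at an unadjusted p under 0.05. CYP71B34 turned to 0.018 and CYP71B29 stood at -0.92 once the replicate block and the 3'/5' ratio were terms, and within replicate 2 alone CYP71B29 stood at -0.067 and CYP71B34 at -0.44. The size for both genes also hung on single untreated wild type arrays. Leaving out replicate 1 of the untreated wild type gave -0.015 for CYP71B29, and leaving out replicate 2 gave -0.74. CYP71B34 stood at -0.51 and -0.086 in the same fits, the opposite order, whereas CYP71B26 (-0.49 and -0.38) and CYP71B28 (-0.51 and -0.38) moved less. Without the untreated line array of high 3'/5' ratio the 5 genes ranged from -0.48 (CYP71B26) to -0.20 (CYP71B6), with a median of -0.356. Without the treated wild type array of high ratio they ranged from -0.42 (CYP71B28) to -0.15 (CYP71B6), with a median of -0.393.

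**Figure D3:**
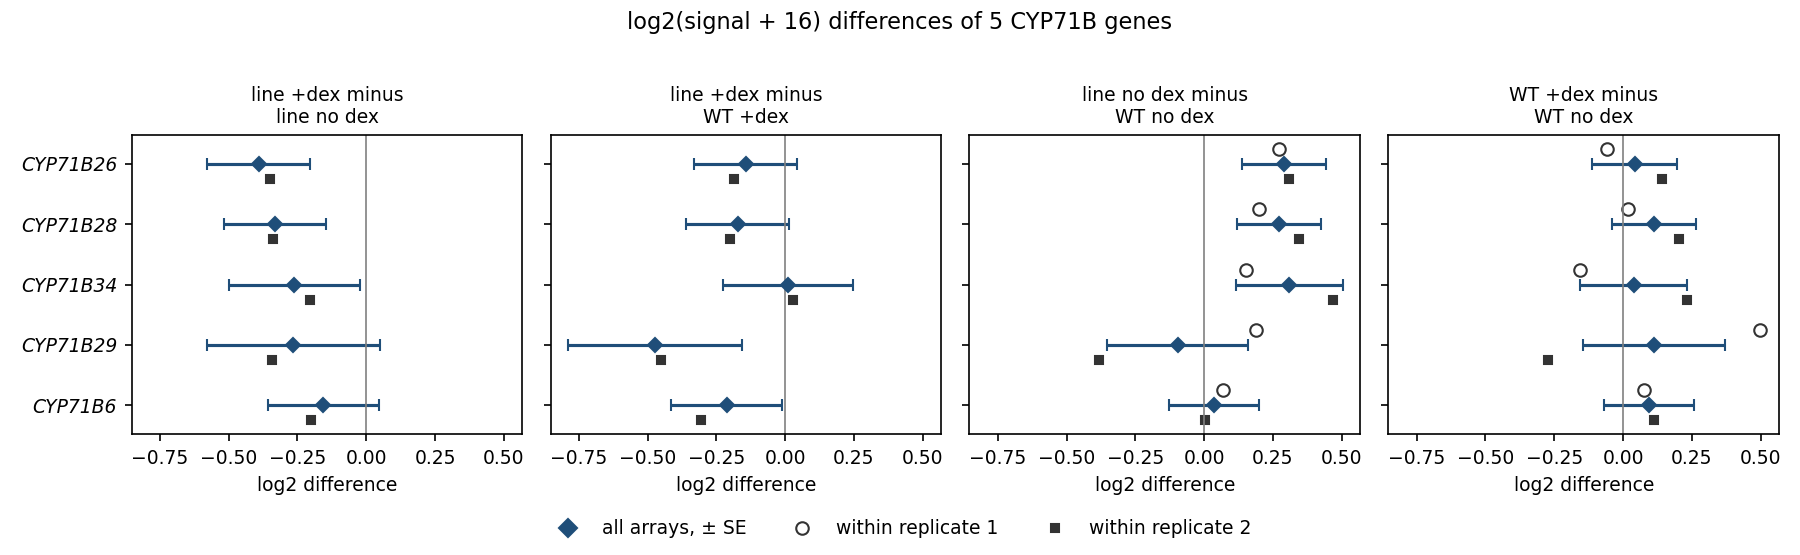
Differences on the log2(signal + 16) scale for the 5 genes in 4 comparisons, with diamonds for the fit on all arrays (bars are ± SE), circles for the difference within replicate 1 and squares for that within replicate 2. All 5 genes lie below 0 for the treated against the untreated line, and CYP71B26, CYP71B28 and CYP71B34 lie above 0 within both replicates for the untreated line against the untreated wild type.

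The untreated line was compared with the untreated wild type, where the fusion is present but not induced. This contrast did not choose the genes, although its arrays also enter those that did: a high untreated line lowers both values used in the choice, so the choice favours positive values here. CYP71B26 had 84.2 ± 4.03 (SD, n = 2) in the untreated line and 66.0 ± 4.67 in the untreated wild type, CYP71B28 had 74.2 ± 0.636 and 58.8 ± 4.88, and CYP71B34 had 89.2 ± 5.80 and 69.7 ± 17.8. The signal was 1.28, 1.26 and 1.28 times as high in the line for these 3 genes. Their line arrays did not overlap with the wild type arrays, which 9.94% of all tested probe sets also showed in this direction and 8.47% in the other, with none of the 5 genes among the second set.

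On the log2 scale the untreated line exceeded the untreated wild type by 0.31 ± 0.19 (SE, 95% interval -0.159 to 0.780) for CYP71B34, 0.29 ± 0.15 (-0.084 to 0.665) for CYP71B26 and 0.27 ± 0.15 (-0.100 to 0.642) for CYP71B28. None passed, with an adjusted p of 1.00 by limma for each. By limma 0 of 10183 probe sets (0%) passed, with 41 at an unadjusted p under 0.05, or 381 with the replicate block. The difference was 0.27 within replicate 1 and 0.31 within replicate 2 for CYP71B26, 0.20 and 0.35 for CYP71B28, and 0.15 and 0.47 for CYP71B34. Without the untreated line array of replicate 2 these 3 genes stood at 0.33, 0.26 and 0.37. For CYP71B34 leaving out replicate 2 of the untreated wild type gave 0.097, and leaving out replicate 1 gave 0.52.

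CYP71B6 and CYP71B29 showed no such gap between the untreated groups. CYP71B6 had 823 ± 36.6 (SD, n = 2) in the untreated line and 803 ± 61.7 in the untreated wild type, a log2 difference of 0.036 ± 0.16 (SE, 95% interval -0.363 to 0.436, limma adjusted p 1.00). CYP71B29 had 90.9 ± 7.99 and 102 ± 41.0, a log2 difference of -0.096 ± 0.26 (-0.722 to 0.529, limma adjusted p 1.00). Its sign was opposite in the replicates, 0.19 within replicate 1 and -0.38 within replicate 2. The intervals of both genes include differences as large as those of the other 3.

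**Figure D4:**
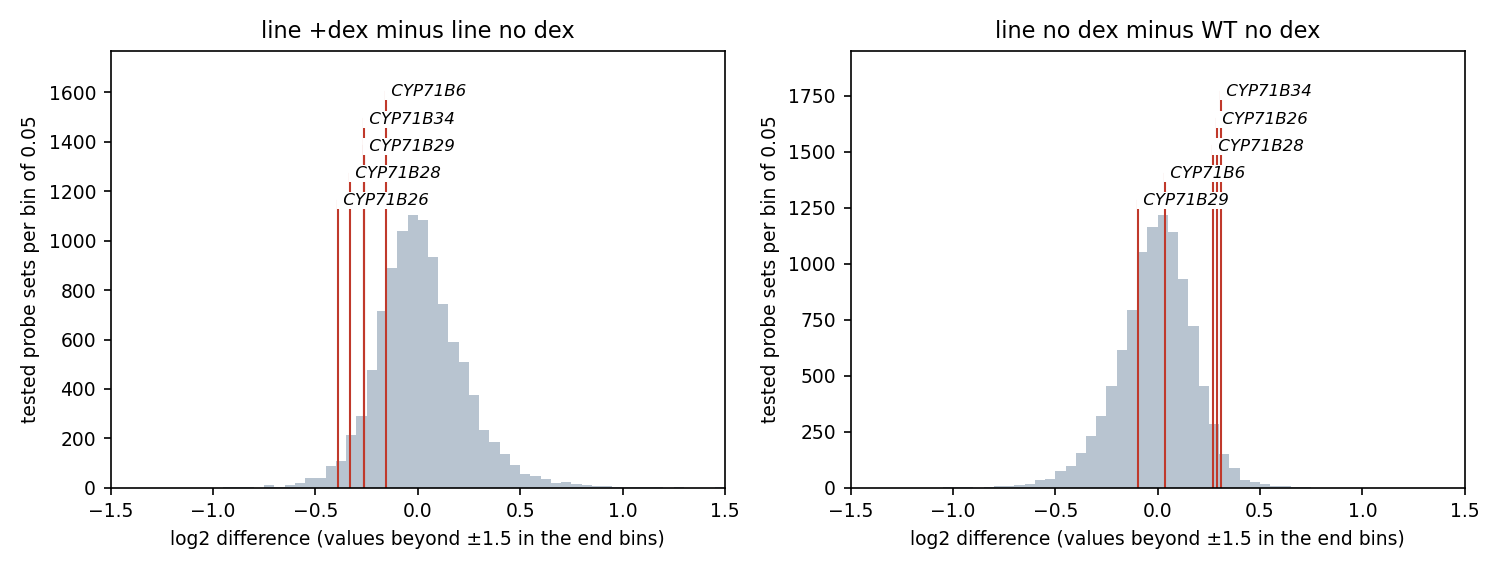
Number of tested probe sets (10183 in all) by log2(signal + 16) difference in bins of 0.05, for the treated against the untreated line and for the untreated line against the untreated wild type, with red lines at the 5 genes. For the treated line 2.41% (CYP71B26) to 18.9% (CYP71B6) of all tested probe sets lie further to the left, and in the untreated comparison CYP71B26, CYP71B28 and CYP71B34 lie at the 95.3rd to 97.0th percentile.

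Dexamethasone in the wild type is the control for the steroid itself. This response is subtracted in one of the values that chose the genes, so the choice favours positive values here and they are no independent check. All 5 genes had small positive log2 differences, 0.11 ± 0.26 (SE) for CYP71B29, 0.11 ± 0.15 for CYP71B28, 0.093 ± 0.16 for CYP71B6, 0.043 ± 0.15 for CYP71B26 and 0.038 ± 0.19 for CYP71B34, each with an adjusted p of 1.00 by limma, while 50.7% of all tested probe sets were below 0. The 95% intervals were -0.513 to 0.738 for CYP71B29, -0.432 to 0.508 for CYP71B34, -0.306 to 0.493 for CYP71B6, -0.331 to 0.417 for CYP71B26 and -0.259 to 0.483 for CYP71B28. CYP71B6 (0.075 and 0.11) and CYP71B28 (0.018 and 0.21) were positive within replicate 1 and within replicate 2. For CYP71B28 both treated arrays were above both untreated ones, as for 6.78% of all tested probe sets, and for none of the 5 genes were they below, as for 7.79%. The other 3 changed sign between replicates, with -0.057 and 0.14 for CYP71B26, -0.16 and 0.23 for CYP71B34, and 0.50 and -0.27 for CYP71B29. Without the treated wild type array of high 3'/5' ratio the 5 genes ranged from -0.0015 (CYP71B6) to 0.14 (CYP71B29). By limma 0 of 10183 probe sets (0%) passed, with 19 at an unadjusted p under 0.05, or 115 with the replicate block.

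The replicate number was a term that the choice of genes had not used. None of the 5 genes passed between replicate 2 and replicate 1, where 16.7% of all tested probe sets did. CYP71B29 stood at 0.28 ± 0.16 (SE, limma adjusted p 0.267), CYP71B6 at 0.14 ± 0.099 (limma adjusted p 0.341), CYP71B34 at -0.19 ± 0.13 (limma adjusted p 0.318), CYP71B26 at -0.038 ± 0.12 (limma adjusted p 0.844) and CYP71B28 at -0.022 ± 0.11 (limma adjusted p 0.912). CYP71B6 was higher in replicate 2 in 3 of 3 pairs and CYP71B34 lower in 3 of 3, which 25.4% and 29% of all tested probe sets also were. The value of CYP71B29 came from 1 pair, at 0.73 in the untreated wild type against 0.15 in the untreated line and -0.048 in the treated wild type. Leaving out 1 array gave 0.052 to 0.44 for CYP71B29 and -0.27 to -0.075 for CYP71B34, in each case nearest to 0 without an untreated wild type array, and 0.12 to 0.17 for CYP71B6. With the 3'/5' ratio as a further term CYP71B29 reached 0.64 and passed (limma adjusted p 0.0439). In that fit, which has 1 residual degree of freedom, 1173 of 10183 tested probe sets passed.

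The 2 other tested CYP71B genes differed more between the replicates. CYP71B37 stood at 147.7 in the treated line, where the untreated line gave 139.4 and 212.9, the treated wild type 128.9 and 202.3 and the untreated wild type 113.3 and 168.3, and it was higher in replicate 2 by 0.55 ± 0.11 (SE, limma adjusted p 0.0194). CYP71B23 had 279.8, then 259.5 and 326.9, 265.2 and 373.0, and 252.9 and 340.0 in the same order, a replicate difference of 0.40 ± 0.11 (limma adjusted p 0.0512). For both genes replicate 2 was above replicate 1 in 3 of 3 pairs, as for 25.4% of all tested probe sets. Their difference between treated and untreated line was -0.20 ± 0.38 (SE) for CYP71B37 and -0.055 ± 0.31 for CYP71B23 over both replicates, and -0.48 and -0.21 within replicate 2.

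**Figure D5:**
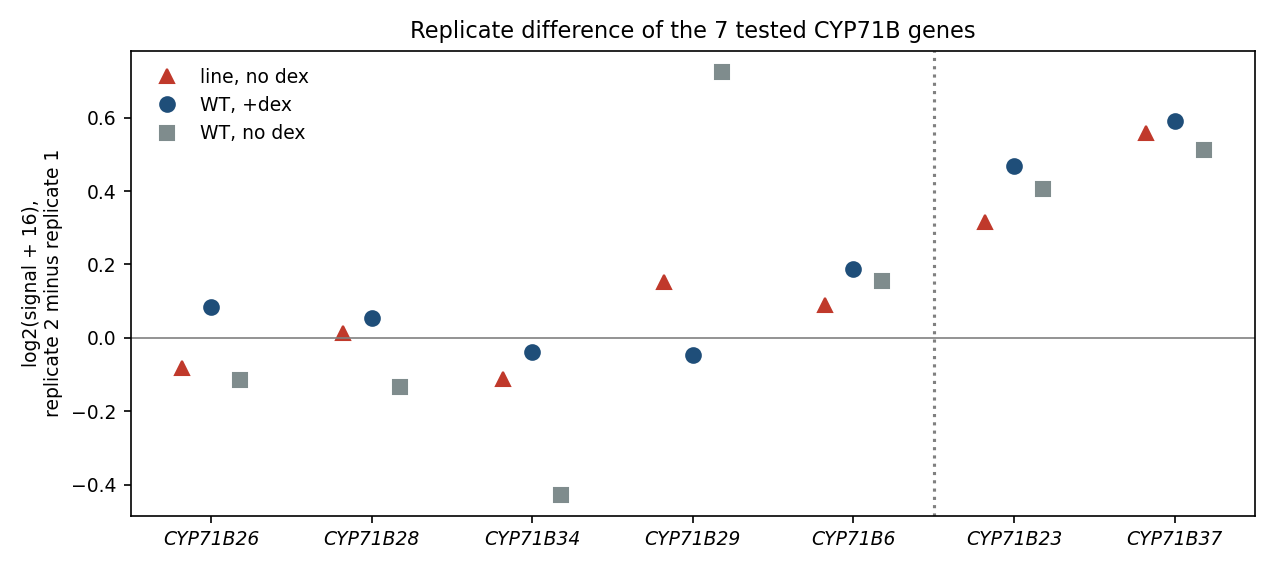
Replicate 2 minus replicate 1 on the log2(signal + 16) scale for the 7 tested CYP71B genes, in the untreated line (triangles), the treated wild type (circles) and the untreated wild type (squares). CYP71B23 and CYP71B37, right of the dotted line, lie at 0.316 or more in all 3 groups, while CYP71B26 and CYP71B28 lie between -0.133 and 0.084.

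The 5 genes did not vary together as one group. After the mean of each replicate number had been subtracted, Pearson's r of log2 values over the 7 arrays was 0.95 between CYP71B26 and CYP71B28, 0.81 between CYP71B26 and CYP71B34 and 0.80 between CYP71B28 and CYP71B34. CYP71B29 correlated with CYP71B6 at 0.69 and with CYP71B34 at -0.60, and at -0.049 with CYP71B26 and -0.018 with CYP71B28. The neighbours CYP71B28 and CYP71B29 thus had unlike patterns, while the genes most alike, CYP71B26 and CYP71B28, lie on different chromosomes. The untreated wild type arrays of CYP71B29 lay far apart, at 72.8 and 130.8, and how far its r values rest on them was not tested. All these r values describe 7 arrays that share a replicate structure and the choice of genes, and they carry no test.

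After this subtraction, other genes of the array followed the same patterns at least as closely. For the values as measured this did not hold for CYP71B26 and CYP71B28. There they correlated at 0.955, above the closest gene found for either, AT3G45160 (0.854 and 0.953). That search covered only tested single-gene probe sets with an SD of at least 0.2 as measured, so flatter genes were not searched. As measured, closer genes were found for CYP71B34 (AT5G65470, 0.964), CYP71B29 (GH9B8, 0.867) and CYP71B6 (AT5G59530, 0.931). Their highest r with another of the 5 genes was 0.809, 0.723 and 0.723. AT2G37870, named below, stood at -0.012 with CYP71B34 as measured. Among about 930 tested single-gene probe sets with an SD of at least 0.2 after replicate means were subtracted, those most like CYP71B26 over the 7 arrays were AT1G65510 (r = 0.96), AT4G18425 (0.96) and AT5G49900 (0.95). Those most like CYP71B28 were AT3G14560 (0.97), AT2G43670 (0.96) and AT2G40110 (0.96), and those most like CYP71B34 were AT1G19450 (0.99), AT4G23493 (0.98) and AT2G37870 (0.97). For CYP71B6 they were AT2G23270 (0.96), AT5G59530 (0.94) and AT2G15220 (0.93). CYP71B29 had looser partners, AT5G19430 (0.86), AT3G14890 (0.82) and the UDP-glycosyltransferase gene UGT73D1 (0.81). A high r did not always go with a lower signal in the treated line. The log2 difference between treated and untreated line was 0.58 for AT2G23270, 0.082 for AT2G37870, 0.066 for AT2G15220 and 0.026 for AT5G19430. It was below 0 for all other partners named after the subtraction.

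Around the 5 genes few neighbours could be read. AT2G24170, next to CYP71B6, was at 291.9 for the treated line, against 232.5 and 235.7 for the untreated one, a log2 difference of 0.30 ± 0.23 (SE), opposite in sign to CYP71B6. CYP71B35, next to CYP71B34, was under the filter at 1.3 to 11.2. Of the genes listed for the indole and camalexin route 0 of 15 had a single-gene probe set in the annotation, and of the reductases and cytochromes b5 that supply P450s with electrons 1 of 9 had one, AT3G02280, at 16.4 to 28.6 and therefore untested. The 2 genes found from other subfamilies of the CYP71 clan, CYP78A9 and CYP79A2, were also under the filter, so the pathway around these enzymes was not analysed here.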

How the data were processed

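The authors deposited, for each of the 7 arrays, linear intensity values of its probe sets, and from the values they had been scaled: the 2% trimmed mean was 100 on every array. The summarising software is not given in the sources used here. Groups and replicate numbers came from the labels. Without the 64 control probe sets, the 10183 of 22810 probe sets with a mean of at least 50 were tested on log2(signal + 16) with limma 3.58.1 in R 4.3.3 (eBayes with a trend, 4-group model, Benjamini-Hochberg adjusted p of 0.05); replicate 2 against 1 was a term beside the groups. The number of arrays limits precision. The 3'/5' ratio of actin, GAPDH and ubiquitin control probe sets served as a term in alternatives. Gene names came from the platform annotation (13513 probe sets with 1 gene, 503 with several, 8730 not listed), and 13436 matched RefSeq by gene ID.

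The named genes were the 5 members, other CYP71B genes, adjacent genes, fixed lists of P450-related genes and, for each member, the 3 genes with the highest r. Members, lists and tests were chosen with earlier results of these data known. The replicate numbers, from the labels, paired the arrays: deviations from group means correlated at 0.621, 0.472 and 0.826 across probe sets. Alternatives were the replicate block, the 3'/5' ratio, scaling, the number added before the log, filters, no trend and leaving out arrays.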

Additional observations from a re-analysis of the deposited data

Results flagged for a closer look

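For CYP71B28 and CYP71B6 the dexamethasone response ran in opposite directions in the line and in the wild type in every array: the treated line was below both untreated line arrays, and each treated wild type array was above the untreated one of its replicate. The difference of the responses was -0.44 for CYP71B28 and -0.25 for CYP71B6 on the log2 scale. It belongs to the comparison that chose these genes and was not tested for them. The share of all tested probe sets with the whole pattern was not counted, so whether the pattern is rare is not known. Its part in the line, a treated array below both untreated line arrays, was shown by 24.1% of all tested probe sets.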

How the results depend on the processing

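For the treated against the untreated line, the median of the 5 genes lay between -0.339 and -0.178 in 16 alternatives. Some of these could not move it: without any 1 wild type array, without the filter or without the eBayes trend this median stayed at -0.265. With the replicate block it was -0.32. As 0 probe sets passed in any group comparison without the block, no call could be lost, and none of the 5 genes gained one with it. For the difference of the responses the median was -0.25 with 64 added before the log and -0.49 to -0.35 leaving out 1 array. Between the untreated groups CYP71B29 turned to 0.053 with replicate block and 3'/5' ratio together, and leaving out 1 array gave -0.46 to 0.27 for CYP71B29 and -0.041 to 0.11 for CYP71B6. For dexamethasone in the wild type, leaving out 1 array gave -0.0015 to 0.19 for CYP71B6, -0.25 to 0.48 for CYP71B29, -0.015 to 0.10 for CYP71B26 and -0.18 to 0.25 for CYP71B34. Between replicates CYP71B26 was 0.047 with quantile normalization, 0.023 with median centring and -0.099 to 0.00084 leaving out 1 array; CYP71B28 was 0.064, 0.039 and -0.059 to 0.034. The causes were not tested.

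The count of probe sets passing between line and wild type, both with dexamethasone, was 1 with the block and the ratio and 0 to 1 leaving out 1 array. Between untreated groups it was 5 with the block and the ratio, 1 with the ratio and 0 to 1 leaving out 1 array. Between replicates it was 423 without the filter, where more probe sets were tested, and 301 to 3344 leaving out 1 array. With a mean of at least 100 required, only CYP71B6 of the 5 genes was tested. Without subtracting replicate means, 0 of the 3 most like genes were shared for CYP71B26, CYP71B28 and CYP71B34 and 1 for CYP71B29 and CYP71B6. An order of levels among the genes was not run, since signals of different probes are not comparable. All 5 genes but CYP71B6 had a mean signal under 100, where the number added before the log weighs most.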
